A study of Arabidopsis thaliana with 9 samples.

Results

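The comparison described here sets roots of the Arabidopsis thaliana mutant line hcr1-1 against roots of the wild type Col-0, the background accession that all genotypes share. It uses the 3 arrays titled hcr1-1 and the 3 titled Col-0, which are 6 of the 9 arrays in the series, over the rows to which the annotation of the array gives a single gene (16746 of 38408 rows, 16552 genes). The other 3 arrays come from hcr1-2, a further line with a lesion in the same gene. They shared the estimate of spread and served to compare the lines. All plants, wild type included, grew in hydroponics with ample potassium at a pO2 of 11.1 ± 1.1%, with 16 h of light at 20 °C, and roots were taken at 21 days. The data therefore compare genotypes under 1 oxygen regime and do not measure a response to oxygen. Each array held 100 ng of RNA from a pool of 5 plants, and hcr1-1 is 1 line whose lesion the labels do not place. The labels call the arrays of a genotype biological replicates.

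HCR1 (AT3G24715) is named for the hydraulic conductivity of the root and encodes a Raf-like protein kinase, a member of a plant family that resembles the MAP kinase kinase kinases. Root hydraulic conductivity is the ease with which water crosses the root, which depends largely on aquaporins, and in Arabidopsis it falls when oxygen is short. Plant cells short of oxygen stabilise transcription factors of the ERF-VII group, which switch on a small set of core hypoxia genes and shift energy production from mitochondrial respiration to glycolysis and fermentation. Mitochondria keep a genome of their own, which encodes subunits of the respiratory chain, and a large copy of that genome lies on chromosome 2 of the Arabidopsis nucleus. Its loci carry names that begin with AT2G07, as do some other genes of that region, and its sequences are nearly identical to those in the mitochondrion, so a probe cannot say which of the copies the RNA came from.

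The mutated gene was examined first, as a check of the labels. HCR1 signal was 4.60, 4.85 and 4.88 in the 3 Col-0 arrays and 3.46, 3.25 and 2.36 in the 3 hcr1-1 arrays, on the log2 scale. Every hcr1-1 array lay more than 1 log2 unit below every Col-0 array, and hcr1-1 replicate 3 was the lowest. The difference of means was -1.76 (SE 0.23), which is 3.38-fold lower. It had a limma unadjusted p of 7.76e-06 and an adjusted p of 0.13 over all rows, and the exact two-sided permutation p was 0.1, the smallest that 3 arrays against 3 can give. Without hcr1-1 replicate 3 the difference was -1.43 (limma adjusted p = 0.0151). In hcr1-2 the signal averaged 4.30, and hcr1-1 was lower than hcr1-2 at a limma unadjusted p of 0.00014 and an adjusted p of 0.719.

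**Figure D1:**
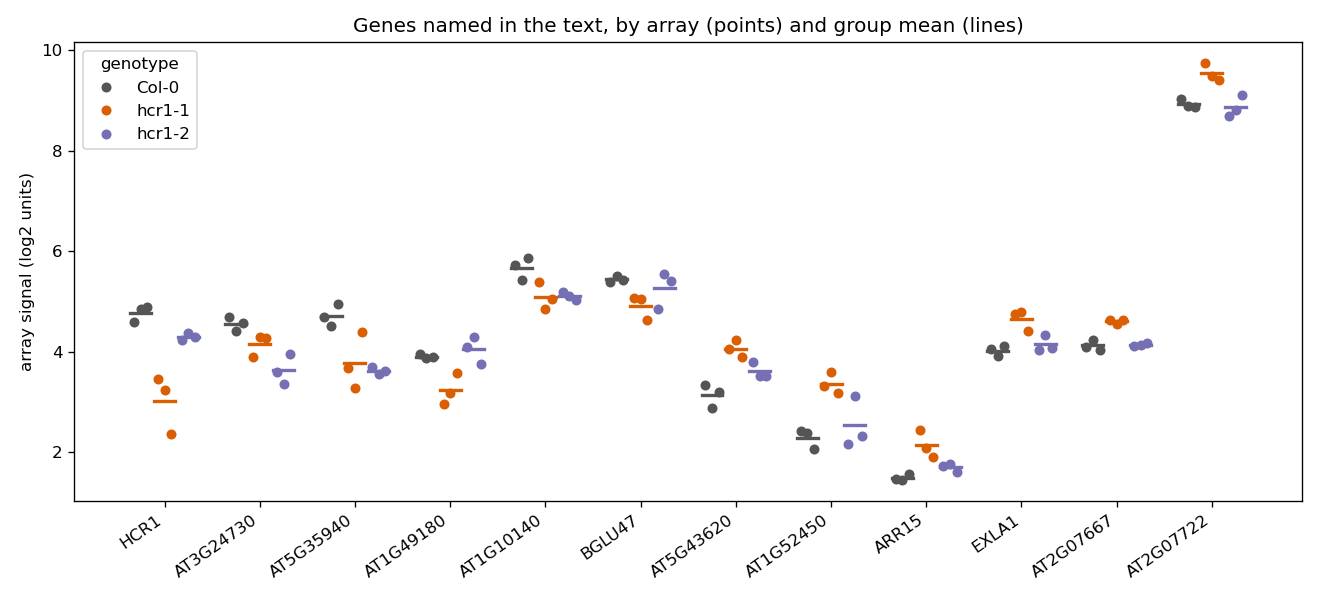
Array signal in log2 units of 12 genes named in the text, with a point for each array and a line at each group mean, for Col-0, hcr1-1 and hcr1-2. HCR1 stands at 2.36 to 3.46 in hcr1-1 against 4.60 to 4.88 in Col-0, and each gene is to be compared between genotypes only, since rows differ in their probes.

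The genes beside HCR1 on chromosome 3 differed little as a group. Among the 20 gene models on each side in TAIR10.1, 21 genes were measured, and their median difference was 0.00, with a range from -0.41 to 0.30. The lowest was AT3G24730, whose model overlaps that of HCR1. Its signal was 4.69, 4.41 and 4.58 in Col-0 and 3.89, 4.29 and 4.27 in hcr1-1, a difference of -0.41 (SE 0.17, limma unadjusted p = 0.031). All hcr1-1 arrays lay below all Col-0 arrays, and signal from the stretch that the models share cannot be assigned here to either gene. AT3G24870, the highest of the neighbours, had 6.42, 6.50 and 6.14 in Col-0 against 6.71, 6.55 and 6.71 in hcr1-1 (0.30, SE 0.12, limma unadjusted p = 0.0318).

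Across the named rows the roots of hcr1-1 and Col-0 were close. No row passed limma after Benjamini-Hochberg adjustment at 0.05 (0% of 16746), and 542 rows had an unadjusted p under 0.05, 3.24% of all, where 837.3 rows would be reached by chance alone. Of these, 327 were higher in hcr1-1 (1.95% of all rows) and 215 were lower (1.28%). The middle 50% of rows lay between -0.09 and 0.09, and the median 95% half-width of a difference was 0.31, so differences of that size or smaller could not be resolved for a typical row. Past 1.5-fold stood 24 rows on the higher side and 32 on the lower side, of which 10 and 18 were dim, meaning that their mean over all arrays was below the median row. The 3 arrays of hcr1-1 did not overlap the 3 of Col-0 in 1542 rows (9.21%), of which 868 lay on the higher side (5.18% of all rows) and 674 on the lower side (4.02%). With 3 arrays against 3, chance alone gives no overlap in 5% of rows per direction.

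Arrays of different genotype correlated over the same range as arrays of 1 genotype. Pearson r across rows was 0.990 to 0.992 within Col-0, 0.989 to 0.991 within hcr1-1 and 0.989 to 0.992 between them, with rows not being independent. Array weights of the 6 compared arrays ran from 0.94 to 1.31, and no compared array stood apart by this measure. In the same fit, array weights of hcr1-2 ran from 0.47 to 1.47.

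**Figure D2:**
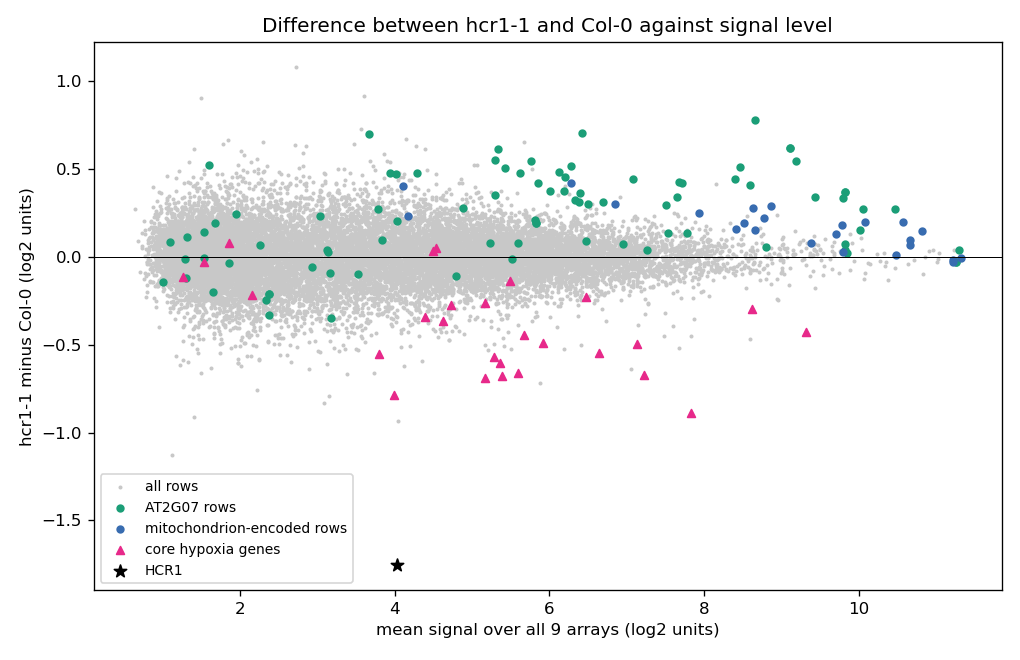
Difference between hcr1-1 and Col-0 in log2 units for all 16746 rows (grey) against the mean signal over all 9 arrays, with AT2G07 rows, mitochondrion-encoded rows, core hypoxia genes and HCR1 marked. HCR1 lies at -1.76, most AT2G07 rows above a mean of about 4 lie above 0, and most core hypoxia genes lie below 0.

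Among the lists and families with at least 5 measured genes, the AT2G07 loci stood highest in hcr1-1. Their 88 rows, which belong to 70 genes, had a median difference of 0.24, against 0.00 over all rows. Of these rows 70 lay above Col-0 (beside 50.9% of all rows) and 18 below, 38 were higher at a limma unadjusted p under 0.05 (43.2%, beside 1.95% of all rows), and none was lower at that p. In 45 of them, or 51.1%, all hcr1-1 arrays exceeded all Col-0 arrays, beside 5.18% of all rows. None passed after adjustment by limma. These rows are not independent, and 12 of them hold exactly the values of another row. That loci of the chromosome 2 copy share sequence with the mitochondrial genome is background knowledge, and no sequence was compared here.

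Within the AT2G07 group the difference was found in the rows with signal. The 65 rows that were not dim had a median of 0.34 and held all 38 of the rows at an unadjusted p under 0.05, while the 23 dim rows had a median of -0.01 and held 0. Split by locus after the values had been seen, the 69 rows from AT2G07667 upward had a median of 0.31, and the 19 rows up to AT2G07640 had a median of 0.04, with 15 of the 19 dim. The rest of chromosome 2 did not share the shift. Its 2483 rows had a median of 0.00. At an unadjusted limma p under 0.05, 41 were higher (1.65%, beside 1.95% of all rows) and 38 lower (beside 1.28% of all rows).

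AT2G07722 was the clearest of the brighter loci. Its brightest row read 9.02, 8.89 and 8.87 in Col-0 and 9.74, 9.49 and 9.41 in hcr1-1, a difference of 0.62 (SE 0.14). A further row of the same gene read 8.32, 8.55 and 8.33 against 9.35, 9.13 and 9.06, a difference of 0.78 (SE 0.15). Neither row overlapped between the genotypes, and in both replicate 1 was the highest hcr1-1 array. AT2G07667 had 4.1, 4.23 and 4.04 against 4.63, 4.55 and 4.63 (0.48, SE 0.10), and its 3 hcr1-1 arrays were nearly level. AT2G07728 had 5.20, 4.98 and 5.04 against 5.81, 5.53 and 5.54 (0.55, SE 0.13). AT2G07705 had 5.18, 5.15 and 4.92 against 5.96, 5.52 and 5.61 (0.61, SE 0.15). Both were separated from Col-0, with replicate 1 again the highest. AT2G07672 had 6.36, 6.32 and 5.99 against 7.35, 6.87 and 6.57 (0.71, SE 0.22), the widest of these by size among genes taken at their brightest row. All 5 loci had a limma adjusted p of 1.

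Genes with symbols of the mitochondrial genome (nad, cox, atp, ccb and matR), picked from the 145 rows without a chromosome, stood higher as well, by less. They are called mitochondrion-encoded here, and genes with other symbols were not counted among them. Their 24 rows, of 15 genes, had a median of 0.17, with 21 rows above Col-0 and 3 below. In 16 rows (66.7%, beside 5.18% of all rows) the hcr1-1 arrays all exceeded the Col-0 arrays, and 4 rows (16.7%, beside 1.95% of all rows) were higher at a limma unadjusted p under 0.05. By role, the 17 rows of nad genes, which encode subunits of complex I, the NADH dehydrogenase that opens the respiratory chain, had a median of 0.16 and 1 row at that p. The row of nad1 in question read 6.45, 6.19 and 6.13 in Col-0 and 6.85, 6.46 and 6.71 in hcr1-1 (0.42, SE 0.16), without overlap. The other nad1 rows were uneven, the lowest of the 7 standing at -0.01.

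The 3 rows of ccb genes, which serve the maturation of c-type cytochromes, ran from 0.20 to 0.30. ccb206 had 6.79, 6.83 and 6.72 in Col-0 and 7.30, 6.85 and 7.09 in hcr1-1 (0.30, SE 0.13), and ccb382 had 8.78, 8.67 and 8.72 against 9.28, 8.92 and 8.84 (0.29, SE 0.13). The gene matR, a maturase of mitochondrial introns, had 8.60, 8.52 and 8.56 against 9.04, 8.69 and 8.78 (0.28, SE 0.12). In all 3 the genotypes did not overlap and replicate 1 was the highest hcr1-1 array. Of the subunits of the later complexes, 3 are given here. The cytochrome c oxidase subunit cox1 read 11.23, 11.27 and 11.25 against 11.19, 11.23 and 11.24 (-0.03, SE 0.10), and atp1, a subunit of the ATP synthase, stood at 0.08 (SE 0.10), both with overlapping arrays. The partner of cox1, cox2, had 8.66, 8.62 and 8.51 against 8.84, 8.70 and 8.71 (0.15, SE 0.11), without overlap. The difference was smaller in brighter rows. Over the 89 AT2G07 and mitochondrial rows that were not dim, the Spearman correlation of the difference with mean level was -0.38. It is given as a description only, since these rows are not independent. The 29 rows with a mean of 9 or more had a median of 0.13, beside 0.31 for the 60 below.

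The shift was present in every hcr1-1 array and unequal among them. Relative to the Col-0 mean, the median of the 65 AT2G07 rows that were not dim was 0.05, 0.02 and -0.06 in the Col-0 arrays and 0.48, 0.22 and 0.25 in the hcr1-1 arrays. The hcr1-2 arrays had medians of -0.12, 0.00 and 0.09. The hcr1-1 arrays thus lay above all others, with replicate 1 the highest. For the mitochondrion-encoded rows the Col-0 arrays had medians of 0.04, 0.03 and -0.08, the hcr1-1 arrays of 0.25, 0.11 and 0.11, and the hcr1-2 arrays of -0.15, -0.07 and 0.06. Median signals over all 38408 rows were 3.46, 3.44 and 3.41 in Col-0 and 3.48, 3.44 and 3.44 in hcr1-1. Those of hcr1-2 were 3.43, 3.44 and 3.48. The array medians of the 63 chloroplast-encoded rows overlapped, with 0.04, 0.01 and -0.05 in Col-0 and 0.08, -0.04 and 0.02 in hcr1-1. In 7 of these rows (11.1%, beside 5.18% of all rows) all hcr1-1 arrays exceeded all Col-0 arrays, and in 2 all lay below. Their overall median was 0.02, with 0 rows at a limma unadjusted p under 0.05. Without hcr1-1 replicate 1, 23 AT2G07 rows remained at that p with a median of 0.21, and 0 of the 24 mitochondrial rows did. The mitochondrial count was also 0 without Col-0 replicate 3 and 1 without Col-0 replicate 1, Col-0 replicate 2 or hcr1-1 replicate 3. In bulk samples, a change in the share of a cell type and a change in RNA per cell cannot be told apart.

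**Figure D3:**
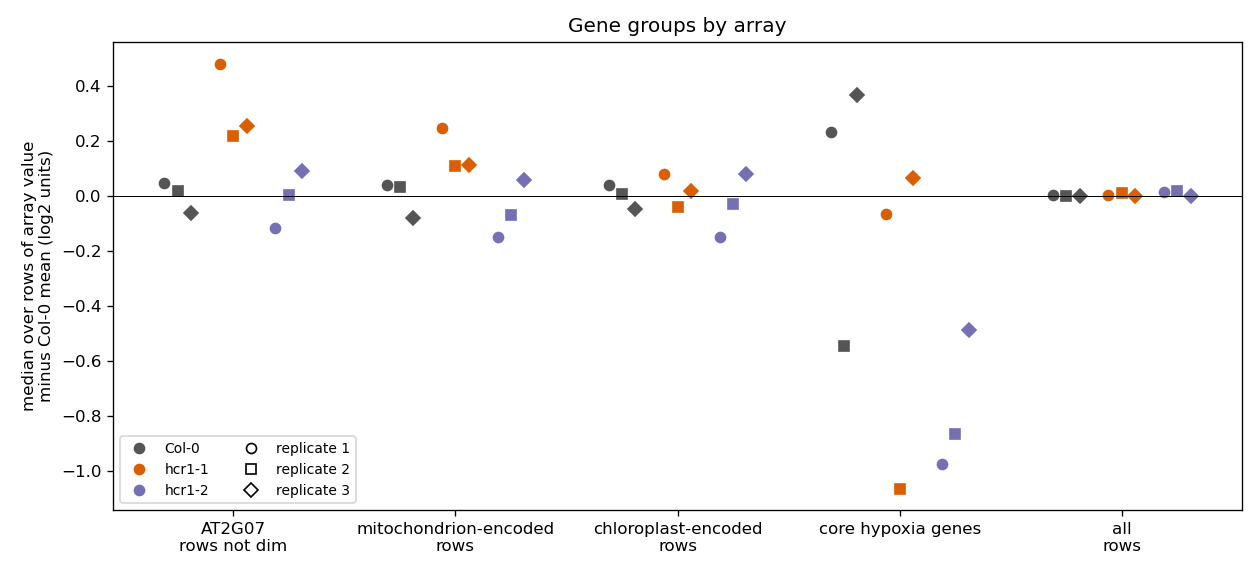
Median over the rows of each group of the array value minus the Col-0 mean, in log2 units, with a symbol for each array (colour for genotype, shape for replicate). The hcr1-1 arrays lie at 0.22 to 0.48 for AT2G07 rows that are not dim and above all Col-0 arrays, while for the core hypoxia genes the genotypes overlap.

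The group was also examined between the mutant lines, in a comparison that shares the hcr1-1 arrays with the one above. Of the 88 AT2G07 rows, 37 (42%) had a limma unadjusted p under 0.05 for hcr1-2 against hcr1-1, beside 5.33% of all rows, and 36 of the 37 were higher in hcr1-1, the direction of 2.31% of all rows. Of the 24 mitochondrion-encoded rows 9 (37.5%) did so, all higher in hcr1-1. None passed after adjustment over all rows, where the smallest limma adjusted p was 0.719. Against Col-0, the median of the AT2G07 rows in hcr1-2 was -0.01 and that of the mitochondrion-encoded rows -0.06. The comparisons with Col-0 share the Col-0 arrays.

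**Figure D4:**
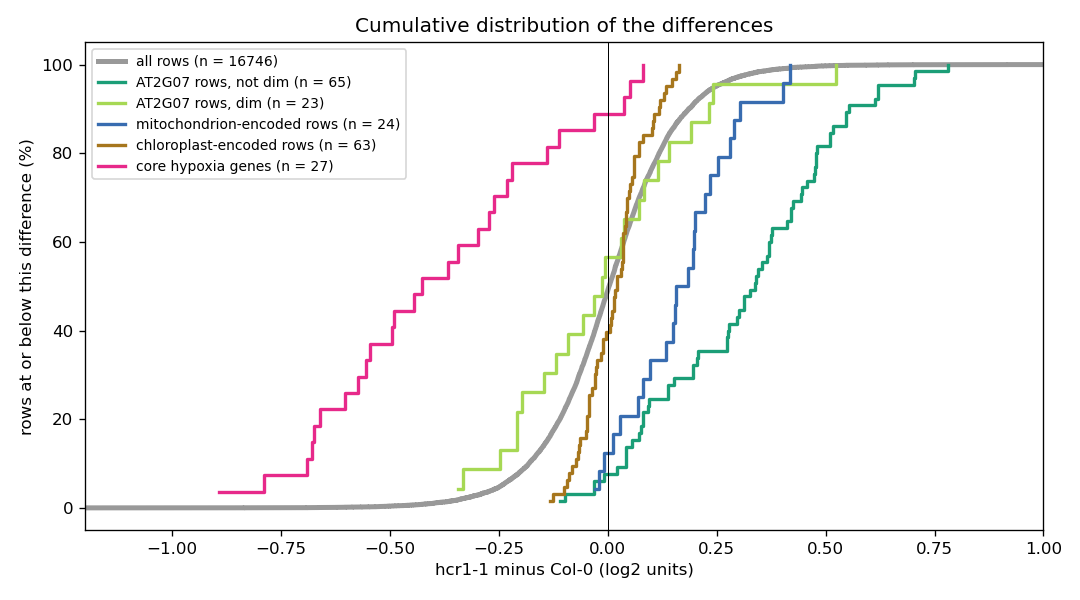
Cumulative share of rows, in percent, at or below each difference between hcr1-1 and Col-0 in log2 units, for all rows and for 5 groups. The curves of AT2G07 rows that are not dim (median 0.34) and of mitochondrion-encoded rows (0.17) lie to the right of all rows (0.00), those of chloroplast-encoded (0.02) and dim AT2G07 rows (-0.01) run near it, and that of the core hypoxia genes (-0.43) lies to the left.

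Beyond the mitochondrial sequences, the genes with the smallest p on the higher side were mostly without an assigned name. AT5G43620 came first. Its signal was 3.35, 2.88 and 3.20 in Col-0 and 4.05, 4.24 and 3.90 in hcr1-1, a difference of 0.92 (SE 0.15, limma adjusted p = 0.511). The groups were well separated, and hcr1-2 lay between them at 3.79, 3.52 and 3.51. EXLA1, an expansin-like protein of the cell wall, had 4.05, 3.91 and 4.11 against 4.76, 4.79 and 4.42 (0.63, SE 0.13), again without overlap, and a mean of 4.15 in hcr1-2. ARR15, a type-A response regulator that is induced by cytokinin and dampens its signal, had 1.48, 1.45 and 1.57 against 2.44, 2.08 and 1.91 (0.64, SE 0.14). Its row was dim, near the bottom of the range. AT1G52450, also dim, had the widest difference upward, with 2.43, 2.37 and 2.06 against 3.33, 3.59 and 3.18 (1.08, SE 0.22). Dim as well were AT5G39150 at 0.90 (SE 0.22) and AT5G09570 at 0.66 (SE 0.15). Of the 10 genes with the smallest p upward, 4 were AT2G07 loci and 4 were dim. All but AT5G43620 had a limma adjusted p of 1.

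By size among genes whose arrays did not overlap, AT1G65120, AT1G65346, AT3G24465 and AT1G62085 joined them. AT1G65120 had 2.78, 3.24 and 3.66 in Col-0 and 4.01, 4.09 and 3.77 in hcr1-1 (0.73, SE 0.19), with the highest Col-0 array just under the lowest hcr1-1 array. AT1G65346 had 3.79, 4.23 and 3.72 against 4.91, 4.49 and 4.36 (0.67, SE 0.19). AT3G24465 stood at 0.66 (SE 0.18) and AT1G62085 at 0.64 (SE 0.22), both in dim rows. The genes picked by p or by size were chosen for that difference, so their separation adds nothing to it.

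On the lower side, HCR1 came first, and 6 of the 10 genes with the smallest p were dim. Of the brighter ones, AT5G35940 had 4.69, 4.51 and 4.96 in Col-0 and 3.68, 3.29 and 4.39 in hcr1-1 (-0.94, SE 0.23). Replicate 3 of hcr1-1 came within a short distance of Col-0, and hcr1-2 was lower than Col-0 too, at a mean difference of -1.10. AT1G49180 had 3.95, 3.87 and 3.90 against 2.96, 3.19 and 3.58 (-0.66, SE 0.17). In hcr1-2 it read 4.1, 4.29 and 3.76, and hcr1-1 was lower than hcr1-2 at a limma unadjusted p of 0.000572. AT4G18380 had 4.70, 4.76 and 4.85 against 4.43, 4.36 and 4.29 (-0.41, SE 0.11), with narrow groups on both sides.

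The dim genes among the 10 ran from -0.60 (AT5G51900, SE 0.16) to -0.45 (AT2G37530, SE 0.11), with AT2G09970 at -0.57 (SE 0.12), AT1G75600 and AT3G07150 at -0.51 (SE 0.12 and 0.14) and AT3G58150 at -0.49 (SE 0.12) between them. By size, the separated genes below Col-0 added further dim rows. AT5G33355 stood at -0.91 (SE 0.33), AT3G44580 at -0.83 (SE 0.26), AT5G25960 at -0.76 (SE 0.21) and AT3G55600 at -0.66 (SE 0.19). All these rows lay low on the scale. AT4G09360 stood at -0.62 (SE 0.17), and AT1G61450 at -0.61 (SE 0.22). The limma adjusted p was 1 for each of these, HCR1 apart. AT2G13422 passed 2-fold downward with overlapping arrays (0.73, 3.10 and 1.62 against 1.01, 0.73 and 0.33) and is named here after its value was seen.

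Among the lists and families with at least 5 measured genes, the core hypoxia genes stood lowest, and the arrays of the genotypes overlapped in it. Of the 50 listed genes 27 were measured. Their median difference was -0.43, 24 were below Col-0 (beside 49.1% of all rows) and 3 above. Only 1 was lower at a limma unadjusted p under 0.05 (3.24% of all rows had that p, 1.28% in the lower direction), and it was also the only 1 whose arrays did not overlap. This was AT1G10140, with 5.72, 5.42 and 5.87 in Col-0 and 5.39, 4.86 and 5.04 in hcr1-1 (-0.57, SE 0.16, limma adjusted p = 1). Of the 27 measured genes 7 were more than 1.5-fold lower in hcr1-1, beside 32 of all 16746 rows, and in all 7 the arrays overlapped.

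The spread inside each genotype was wide and common to the members. AT5G10040 had 9.26, 8.0 and 9.36 in Col-0 and 9.05, 6.20 and 8.70 in hcr1-1 (-0.89, SE 0.72). CML38, a calmodulin-like calcium sensor induced by low oxygen, had 5.23, 3.86 and 5.26 against 4.53, 2.87 and 4.59 (-0.79, SE 0.50). HRA1 (AT3G10040), which restrains the ERF-VII factor RAP2.12, had 6.76, 5.62 and 6.91 against 6.28, 5.09 and 6.44 (-0.49, SE 0.40). In each of the 3, replicate 2 was the lowest array of its genotype, below the others by more than the difference of means. HRU1 (AT3G03270), of the universal stress protein family, had 7.51, 6.57 and 7.63 against 7.22, 5.61 and 7.24 (-0.55, SE 0.42). AT1G19530 had a narrower spread, with 8.81, 8.70 and 8.96 against 8.64, 8.19 and 8.74 (-0.30, SE 0.16). AT5G26200 stood at -0.56 (SE 0.30) and AT3G27220 at -0.50 (SE 0.29).

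Over the list, the Col-0 arrays had medians of 0.23, -0.55 and 0.37 relative to the Col-0 mean, and the hcr1-1 arrays of -0.07, -1.07 and 0.06. Replicates 1 and 3 of hcr1-1 thus lay between the Col-0 arrays. At each replicate number the hcr1-1 median was below that of Col-0, though the labels do not say that the numbers pair the arrays. Replicate 2 was the lowest in both genotypes, and leaving out a single array takes it from 1 genotype only. Without hcr1-1 replicate 2 the list median was -0.01 with 16 of 27 members below Col-0, and without Col-0 replicate 2 it was -0.70 with 26 below and 9 lower at a limma unadjusted p under 0.05, beside 1.85% of all rows in that setting. Without Col-0 replicate 3 it was -0.25, and without hcr1-1 replicate 3 it was -0.62 with 6 members lower at that p, beside 1.48% of all rows. The array medians of hcr1-2 were -0.98, -0.87 and -0.49.

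Fermentation and glycolysis genes differed by little. Of 31 listed genes 9 were measured, with a median of -0.06, 5 below and 4 above Col-0 and 0 at a limma unadjusted p under 0.05. AlaAT1, the alanine aminotransferase that makes alanine from pyruvate in hypoxic tissue, had 8.51, 7.71 and 8.81 in Col-0 and 8.27, 7.13 and 8.29 in hcr1-1 (-0.45, SE 0.35). LDH1 (AT4G17260), the lactate dehydrogenase, stood at -0.29 (SE 0.20) and PDC2, a pyruvate decarboxylase that opens the route to ethanol, at -0.26 (SE 0.27). All had overlapping arrays. The glycolytic enzymes GAPC2 at -0.07 (SE 0.13) and TPI, triose phosphate isomerase, at 0.01 (SE 0.11) were level.

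Among the relatives of HCR1, all 7 kinases of its subgroup were measured. Their median was 0.00, and HCR1 was the only member at a limma unadjusted p under 0.05. RAF35 (AT5G57610) had 4.55, 4.77 and 4.53 in Col-0 and 4.47, 4.24 and 4.52 in hcr1-1 (-0.21, SE 0.15), and RAF42 (AT3G46920) had 4.95, 5.04 and 4.87 against 4.87, 4.74 and 4.87 (-0.13, SE 0.10). Both were separated by narrow gaps. AT1G16270 stood at 0.11 (SE 0.11) and overlapped.

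Nutrient and hormone lists gave few values. Of 33 iron deficiency genes 8 were measured, with a median of 0.08, 6 above Col-0 and 0 at a limma unadjusted p under 0.05. S8H (AT3G12900), an enzyme of coumarin synthesis whose product fraxetin helps roots to take up iron, had 4.89, 4.53 and 5.72 in Col-0 and 5.10, 5.59 and 6.43 in hcr1-1 (0.66, SE 0.33). The peptides IMA2 (AT1G47395) and IMA1 (AT1G47400), which signal iron need, stood at 0.64 (SE 0.51) and 0.45 (SE 0.26), the latter in a dim row. The regulator PYE stood at -0.22 (SE 0.21). None of these genes was separated between the genotypes. Of 22 potassium transport genes only KUP12 (AT1G60160) was measured (-0.17, SE 0.12). Of 32 cytokinin genes 2 were measured, ARR15 and RR16 (0.13, SE 0.13). In sulfur (5 of 18), ethylene (3 of 23), jasmonate (3 of 15), defence (5 of 18) and abscisic acid and cold genes (6 of 26), 0 had an unadjusted limma p under 0.05. Their largest differences were JRG21 at 0.29 (SE 0.17), PDF1.2c at -0.29 (SE 0.17), the sulfur gene AT1G04770 at -0.20 (SE 0.14), EIN3, the master regulator of ethylene responses, at -0.19 (SE 0.12), and the cold gene KIN1 at 0.17 (SE 0.28). No oxygen sensing, aquaporin, nitrogen or phosphate gene of the lists was paired with a row, so the water channels could not be examined here.

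Heat shock and chaperone genes had 17 of 35 measured, with a median of -0.06 and 11 in dim rows. AT2G19310 was lower, with 2.39, 2.10 and 2.42 in Col-0 and 1.96, 1.93 and 1.71 in hcr1-1 (-0.43, SE 0.13, limma unadjusted p = 0.00516), in a dim row. The others overlapped. Of the endodermal barrier list, which builds the suberin and Casparian strip of the root, 6 of 28 were measured, with a median of 0.00. FACT, a caffeoyl transferase that makes waxes associated with root suberin, had 5.99, 6.02 and 6.18 in Col-0 and 5.79, 5.98 and 5.78 in hcr1-1 (-0.21, SE 0.12), separated by a narrow gap. GSO1, a receptor kinase needed to seal the Casparian strip, stood at 0.19 (SE 0.14) with overlap.

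The 23 expansins, which loosen walls as cells grow, had a median of 0.04, with 2 higher and 2 lower at a limma unadjusted p under 0.05, beside 1.95% and 1.28% of all rows. Beside EXLA1, its relative EXLA3 had 1.45, 1.68 and 1.43 against 1.98, 2.06 and 1.61 (0.36, SE 0.14), a dim row with 1 array inside the Col-0 range. EXPB1 had 5.71, 5.79 and 5.64 against 5.26, 5.53 and 5.51 (-0.28, SE 0.11), and EXPA23 stood at -0.50 (SE 0.19) in a dim row. Neither overlapped. BGLU47, a beta-glucosidase, had 5.39, 5.52 and 5.44 against 5.07, 5.05 and 4.64 (-0.53, SE 0.18), well separated, and was the only member of its family of 24 at that p. XTH18, a xyloglucan endotransglucosylase, had 4.22, 3.95 and 4.25 against 4.28, 4.50 and 4.59 (0.32, SE 0.16), above Col-0 in every array. Its family of 10 had a median of -0.02 and 0 at that p.

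Over the 30 families described here with at least 5 measured genes, 12 of 511 genes had a limma unadjusted p under 0.05 (6 higher and 6 lower), or 2.35% beside 3.24% of all rows. The family medians ran from -0.11 to 0.15, and 27 of the 30 lay within 0.1 of 0. In 21 families no gene reached that p. Families were assembled by gene symbol or synonym, and 14969 of the 16746 named rows carried only a locus number as symbol. The counts therefore leave out members without a family symbol or synonym.

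Single members stood out in other families. UGT85A5, a glycosyltransferase, stood at -0.56 (SE 0.17) in a dim row, and SWEET14, a sugar transporter, at -0.48 (SE 0.14), also dim. GLR3.5, a glutamate receptor-like channel, had 4.91, 5.14 and 5.49 in Col-0 and 4.90, 4.91 and 4.68 in hcr1-1 (-0.35, SE 0.15), with hcr1-1 just below the lowest Col-0 array. CYP71B21 stood at 0.37 (SE 0.13), the cysteine-rich peptide LCR35 at 0.61 (SE 0.16) and SCRL19 at 0.34 (SE 0.15), all 3 in dim rows and without overlap. Of 5 histones 4 lay above Col-0, and HTB4, a histone H2B, had 4.86, 4.56 and 4.40 against 5.15, 4.81 and 5.12 (0.42, SE 0.15). Its arrays overlapped. The 13 NPF transporters, which carry nitrate, peptides and hormones, had a median of -0.11 and the 7 WRKY factors one of -0.10, and none of these had a member at that p.

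**Figure D5:**
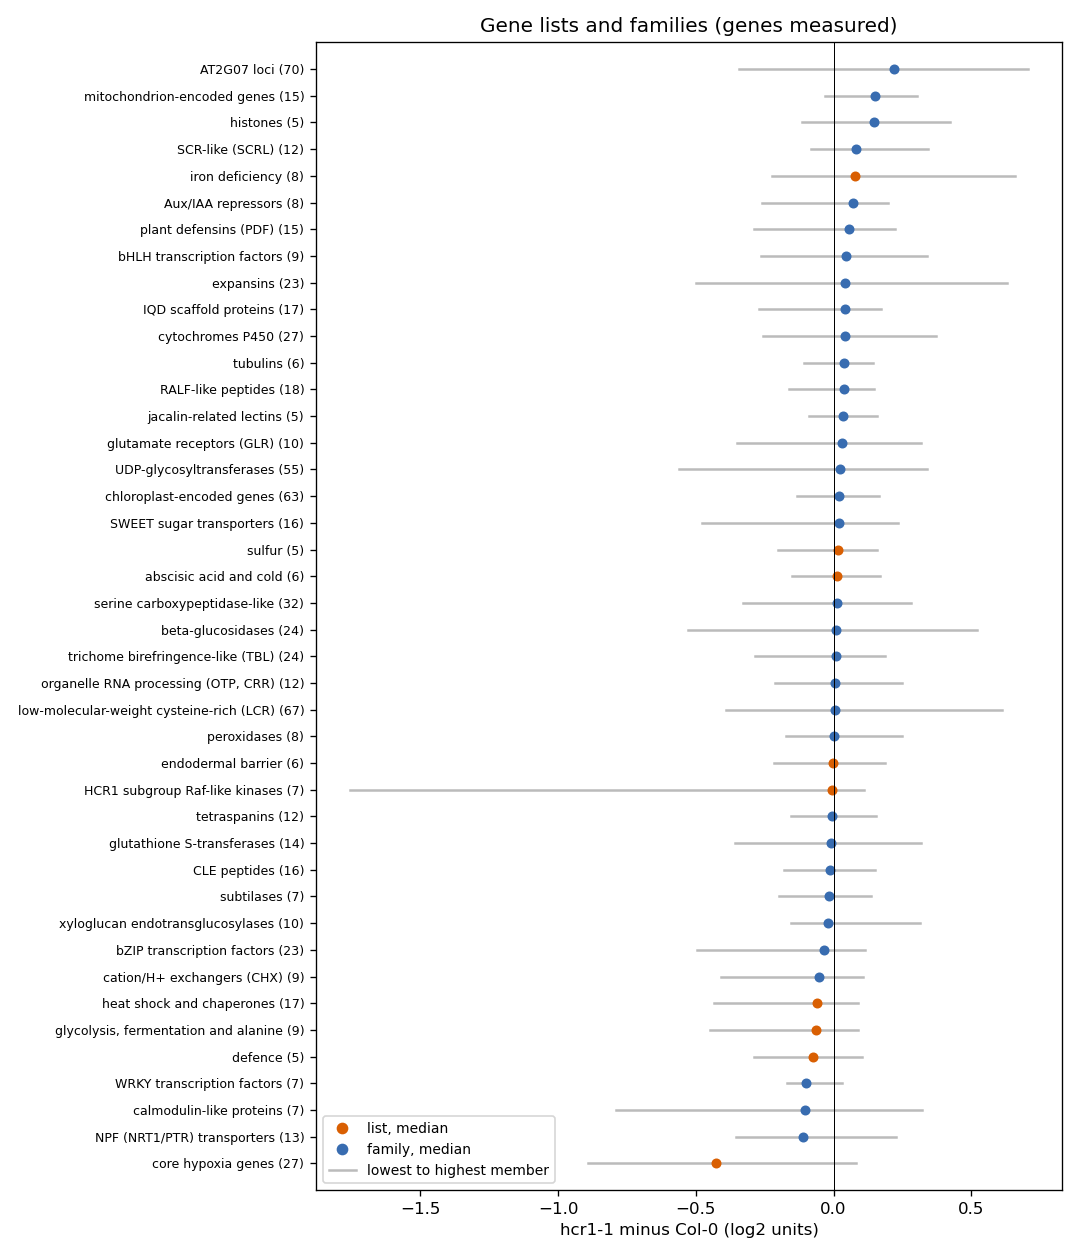
Median (point) and lowest to highest member (line) of the difference between hcr1-1 and Col-0 in log2 units, for each list and family with at least 5 measured genes, with the number measured in brackets. AT2G07 loci stand highest, at 0.22 when each gene counts once, core hypoxia genes lowest, at -0.43, and most others lie within 0.1 of 0.

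Markers of tissues were few on the named rows. The root hair expansins EXPA7 and EXPA18 stood at 0.04 (SE 0.15) and 0.02 (SE 0.20), and their rows were not dim, with 4.47, 4.76 and 4.91 for EXPA7 in Col-0 and 4.78, 4.94 and 4.55 in hcr1-1. The shoot markers RCA, the activase of Rubisco, and LHCB4.1, a light-harvesting protein, were not dim either. They stood at -0.11 (SE 0.15) and -0.08 (SE 0.14), with overlapping arrays. The kinases of dividing cells AUR2 and AUR1 stood at 0.17 (SE 0.15) and -0.08 (SE 0.12). GUT2, which serves xylan synthesis in xylem and was the only 1 of 5 xylem markers measured, had 6.49, 6.65 and 6.50 against 6.21, 6.28 and 6.41 (-0.25, SE 0.11, limma unadjusted p = 0.0472), without overlap. No endodermis marker of the list was on a named row.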

How the data were processed

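Root RNA was hybridised to Affymetrix Arabidopsis Gene 1.1 ST array strips, 1 array per sample. The authors deposited log2 values, for which the submitters' processing notes name Affymetrix Expression Console and RMA, a method that corrects background, equalises array distributions, which removes differences in total signal, and condenses the probes of a row. Their versions and settings are not given in the sources used here, nor is a genome build. Scanner files were not used here, so no row could be called detected and no scan date tested. With 3 arrays per genotype, their number limits the precision.

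Gene names came from the platform annotation and a RefSeq gene table of TAIR10.1, used for names and neighbours only, which matched 16601 of the 16746 rows. Of the other rows, 758 listed several genes and 20904 were not listed. Of the named rows 14969 carried only a locus number. limma 3.58.1 in R 4.3.3 (lmFit, contrasts, eBayes) was fitted over all 9 arrays without a block, two-sided, with Benjamini-Hochberg adjustment over 16746 rows at 0.05, and checked on simulated data. Members of a list are counted by their brightest row, AT2G07 and mitochondrial sequences by row. Dim rows had a mean under 3.41.

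The genes named were HCR1 with its neighbours, the 10 per direction with the smallest p, the 10 per direction with the largest difference without overlap, and up to 4 per list or family by smallest p. AT5G10040, HRA1, HRU1, cox1, cox2, atp1 and the markers beyond these were added once their values were known. The comparison, lists and families were chosen with earlier results of these data known, and list membership comes from textbook knowledge or gene symbols. Lists are described with no test. A gene family is not reported here. Alternatives were fitting only the compared groups, a block for the replicate number, normalizing again by quantiles or by the median, dropping dim rows, testing all 38408 rows, variances that were trended and robust, weighting of arrays, an adjusted p of 0.1, a fold threshold of 1.5 and leaving out each compared array.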

Additional observations from a re-analysis of the deposited data

How the results depend on the processing

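The count of genes past the limma threshold was 0 in all settings except 2. With trended and robust variances, and without hcr1-1 replicate 3, it was 1, which was HCR1 each time. HCR1 kept its direction throughout. Its difference was -1.76 with an adjusted p of 0.012 under trended and robust variances and ran from -1.97 to -1.43 when single arrays were left out, with adjusted p values of 0.0151 to 0.844. Over the other settings without a fold threshold, the adjusted p ran from 0.0517 with dim rows left out to 0.523 in the fit of the compared groups alone. Rows at an unadjusted p under 0.05 numbered 483 to 706 over the settings that tested the 16746 rows at that p without a fold threshold. The cause of these shifts was not tested. The core hypoxia median ran from -0.70 to -0.01 when single arrays were left out. AT2G07 rows higher at an unadjusted p under 0.05 numbered 23 to 38 when single arrays were left out and 34 to 42 under the other settings. The median over all 88 AT2G07 rows ran from 0.21 to 0.27. It was 0.34 over the 65 rows that remained with dim rows left out. Mitochondrion-encoded rows higher at that p numbered 0 to 5 when single arrays were left out, 1 with the replicate block and 10 with trended and robust variances. The median of the mitochondrion-encoded rows was 0.17 in the main fit, 0.13 after quantile normalization and 0.15 after median centring. Of the single genes named, only HCR1 and those picked by p or by size across all rows were followed through the settings. These kept their direction in every setting run. Some list medians near 0 did not, running with single arrays left out from -0.18 to 0.08 for heat shock, -0.16 to 0.04 for glycolysis and fermentation, -0.02 to 0.19 for iron deficiency, -0.02 to 0.13 for expansins and -0.09 to 0.03 for the HCR1 subgroup.

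With the replicate number as a block, 0 genes passed, 553 rows had an unadjusted p under 0.05, the adjusted p of HCR1 was 0.398, and 5 of 27 core hypoxia genes were lower at an unadjusted p under 0.05 (1.47% of all rows) against 1 without the block. Deviations from the group means correlated at 0.15, 0.08 and 0.00 between same-numbered arrays of Col-0 and hcr1-1. Between arrays of different number they correlated at -0.14 to 0.05. Not every array correlated best with its own number, so this measure does not settle whether the numbers pair the samples.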
